A study of Mus musculus with 7 samples.

Results

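Cholesterol efflux and lysosomal lipid export were examined through 10 genes of mouse alveolar macrophages, taken by symbol from the 47643 genes of the deposited expression table. They are the sterol-sensing receptors Nr1h2 and Nr1h3, the exporters Abca1 and Abcg1, the acceptor protein Apoe, the lysosomal genes Lipa, Npc1 and Npc2, the oxysterol-making enzyme Ch25h and the esterifying enzyme Soat1. Each symbol matched 1 row, and all 10 passed the filter for testing (a mean of at least 1 TPM over the libraries), as did 11397 genes in all.

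RNA was sequenced from cells of the lung that the labels call alveolar macrophages, and for the WT group they add CD11c, F4/80 and SiglecF as positive markers. The 3 WT libraries are labelled WT (wild type), with no further word on floxed or Cre alleles. The 3 Lyz2cre libraries carry floxed Siah1a and Siah2 (cSiah1a/2f/f) with a Cre recombinase driven from Lyz2, the lysozyme M gene, which is active across myeloid cells. The CD11ccre library, a lone one, carries the same floxed genes with Cre driven by the CD11c (Itgax) promoter, active in alveolar macrophages and dendritic cells. Siah1a and Siah2 encode RING-type ubiquitin ligases. The labels give no age or sex and do not say that replicates are separate animals, so the p-values reflect the spread between libraries alone, and that spread may be technical. Values are TPM, shares of a library scaled by gene length to a fixed total. TPM do not carry sequencing depth, which is therefore unknown, and no counting interval can be given.

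As background, alveolar macrophages clear surfactant and dying cells, and so take in much phospholipid and cholesterol. In the lysosome, acid lipase (Lipa) frees cholesterol and fatty acids from their esters, and Npc2 hands the cholesterol to Npc1, which passes it out through the lysosomal membrane. Free cholesterol is then re-esterified for storage by Soat1 or moved out of the cell by Abca1 and Abcg1 onto acceptors, Apoe among them. Oxysterols, such as the product of Ch25h, bind the liver X receptors (LXR) Nr1h3 and Nr1h2, which switch on Abca1, Abcg1 and Apoe.

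Of the 10 genes, the 2 with an adjusted p under 0.05 in Lyz2cre against WT (Ch25h and Lipa, limma) are neighbours on chromosome 19. Their promoters are shown so that their upstream regions can be compared with that of Abca1, the best known LXR target among the members. RefSeq promoter windows (GRCm38.p6, 250 bases before to 50 after a gene's start) were searched for 8 of the 10 members. Abcg1 and Npc1 were not searched, so the motif results do not cover these genes. The 250 bases before the start are printed 5′ to 3′ on each gene's own strand, which is the minus strand for these 3 genes, and capitals mark a palindromic cAMP-response-type motif, TGACGTCA.
Ch25h, chr19:34475149-34475398: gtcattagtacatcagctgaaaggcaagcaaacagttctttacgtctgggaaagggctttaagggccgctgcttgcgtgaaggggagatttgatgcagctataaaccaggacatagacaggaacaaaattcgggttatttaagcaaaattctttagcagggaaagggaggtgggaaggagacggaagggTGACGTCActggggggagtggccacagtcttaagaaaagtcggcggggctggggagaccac
Lipa, chr19:34527475-34527724: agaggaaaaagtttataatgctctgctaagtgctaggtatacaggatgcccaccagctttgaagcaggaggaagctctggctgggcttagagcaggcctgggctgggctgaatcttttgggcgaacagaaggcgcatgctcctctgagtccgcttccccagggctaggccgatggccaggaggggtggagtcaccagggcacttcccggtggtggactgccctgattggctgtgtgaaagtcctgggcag
Abca1, chr4:53159896-53160145: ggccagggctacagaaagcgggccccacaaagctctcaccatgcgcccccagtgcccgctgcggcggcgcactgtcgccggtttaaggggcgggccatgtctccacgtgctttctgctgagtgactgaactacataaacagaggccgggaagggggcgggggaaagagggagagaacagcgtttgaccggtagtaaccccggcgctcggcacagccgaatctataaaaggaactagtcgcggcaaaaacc

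Exact matches to the searched motifs were few. The search was for exact letters, and the factors also bind variants, which were not searched for. An exact direct repeat of AGGTCA with 4 bases between the copies is the consensus LXR element. Looked for on both strands, it was in none of the searched members' windows and in 5 of 32851 promoters of the same 300 bases (0.0152%). With an exact match so rare anywhere, its absence does not show that a window lacks an LXR element, that of Abca1 included. A lone AGGTCA was in none of the searched members' windows and in 16.3% of all promoters. The lysosomal-gene motif TCACGTG was in none of them and in 3.77% of all, and its core CACGTG, which lies within it, was in that of Abca1 alone, 147 bases before the start, against 7.15% of all. TGACGTCA was searched for after the sequences had been read. It stood 61 bases before the start of Ch25h, in no other member searched, and in 588 of 32851 promoters (1.79%). These matches describe letters in short windows and were not tested for binding.

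Both targeted genes were low in the floxed lines. Siah1a stood at 16.59, 6.72 and 13.35 TPM across WT, was listed at 0, 0 and 0.05 TPM in Lyz2cre, and was listed at 0 in CD11ccre. Siah2 stood at 13.56, 12.69 and 17.33 TPM across WT, 1.95, 1.45 and 1.50 TPM across Lyz2cre and 1.21 TPM for CD11ccre. Lyz2, the lysozyme gene that carries the Cre in Lyz2cre, was at 77.64, 72.56 and 86.25 TPM in the libraries labelled WT and, below all of these, at 46.62, 61.89 and 55.73 TPM in Lyz2cre (limma adjusted p = 0.0633), while CD11ccre had 50676 TPM. In Lyz2 the WT libraries were thus far nearer to Lyz2cre than to CD11ccre, and the reason was not tested. The labels do not say whether the WT animals carried a Lyz2 Cre allele.

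The libraries also differed in makeup, and the part these differences play in the results was not tested. Mitochondrially encoded genes took 7.54% to 9.25% of the TPM across WT, 2.67% to 4.61% in Lyz2cre and 4.23% in CD11ccre. Together Chil3 (chitinase-like) and the ferritin chains Ftl1 and Fth1 took 4.90% to 5.29%, 14.4% to 16.3% and 14.0%. TPM sums to the same total in every library, so each value depends on the rest. The median log2 fold change of all tested genes against WT was −0.16 in Lyz2cre and −0.29 in CD11ccre. These medians were −0.08 and −0.14 after rescaling without the dominant and mitochondrially encoded genes. Median-of-ratios scaling brings them to 0.00.

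The markers of the labelled cell type, alveolar macrophages, were abundant, with all 14 tested and a summed level of 34324 to 37505 TPM across WT, 64566 to 79452 TPM across Lyz2cre and 72262 TPM for CD11ccre. Of these 14 genes 5 were called higher and 4 lower in Lyz2cre, against 2.17% and 4.60% of all tested genes. Chil3 made up most of the sum, with means of 21684 TPM over the WT libraries and 60484 TPM over those of Lyz2cre, while Ear1, Ear2 and Fabp1 were among those lower. The sorting marker gene Siglecf averaged 231 TPM over the WT libraries and 84.5 TPM over those of Lyz2cre (limma, adjusted p = 0.00746), with 53.87 TPM in CD11ccre. Of 11 monocyte and interstitial macrophage markers 4 were tested, with sums of 17.8 to 30.2 TPM across WT, 17.9 to 29.9 TPM across Lyz2cre and 20.3 TPM for CD11ccre. Neutrophil markers summed to 44.8 to 94.0 TPM across WT, 106 to 141 TPM across Lyz2cre and 105 TPM for CD11ccre, with S100a8 higher, Csf3r lower and Ly6g at 0 throughout. Alveolar type 2 cell markers summed to 120 to 152, 76.3 to 99.2 and 70.6 TPM, and club and ciliated cell markers to 382 to 552, 146 to 373 and 314 TPM. The eosinophil, basophil and mast cell markers were all listed at 0. In such bulk samples, fewer cells of a type and less RNA per cell cannot be told apart.

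Among the members, Ch25h and Lipa were higher in Lyz2cre than in WT, Ch25h was higher in CD11ccre as well, and no member was called lower in either line. A gene is called where its adjusted p in limma (Benjamini-Hochberg over all 11397 genes tested) is under 0.05. Thus 2 of 10 members were called higher in Lyz2cre, where 247 of all tested genes were (2.17%), and 0 were called lower, where 524 genes were (4.60%). The members were chosen with earlier results of these data known, so their counts beside these shares are descriptions and not tests. Without adjustment, 6 members had p under 0.05 in Lyz2cre, as did 24.6% of all tested genes, and 3 had in CD11ccre, as did 22.3%. Their median log2 fold change was 0.17, with 7 of 10 above 0, against −0.16 and 32.9% over all tested genes. This background turns with the scaling: under median-of-ratios scaling all tested genes had a median of 0.00, with 50.2% above 0 and with 337 called higher and 207 lower, and the members a median of 0.35, with 7 of 10 above 0 and the same 2 called. In CD11ccre 1 of 10 was called higher, where 102 genes were (0.895%), and 0 lower, where 227 were (1.99%). Calls in either direction made up 6.76% of tested genes in Lyz2cre and 2.89% in CD11ccre. The comparisons of the Cre lines share the WT libraries, so their likeness is not independent.

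**Figure D1:**
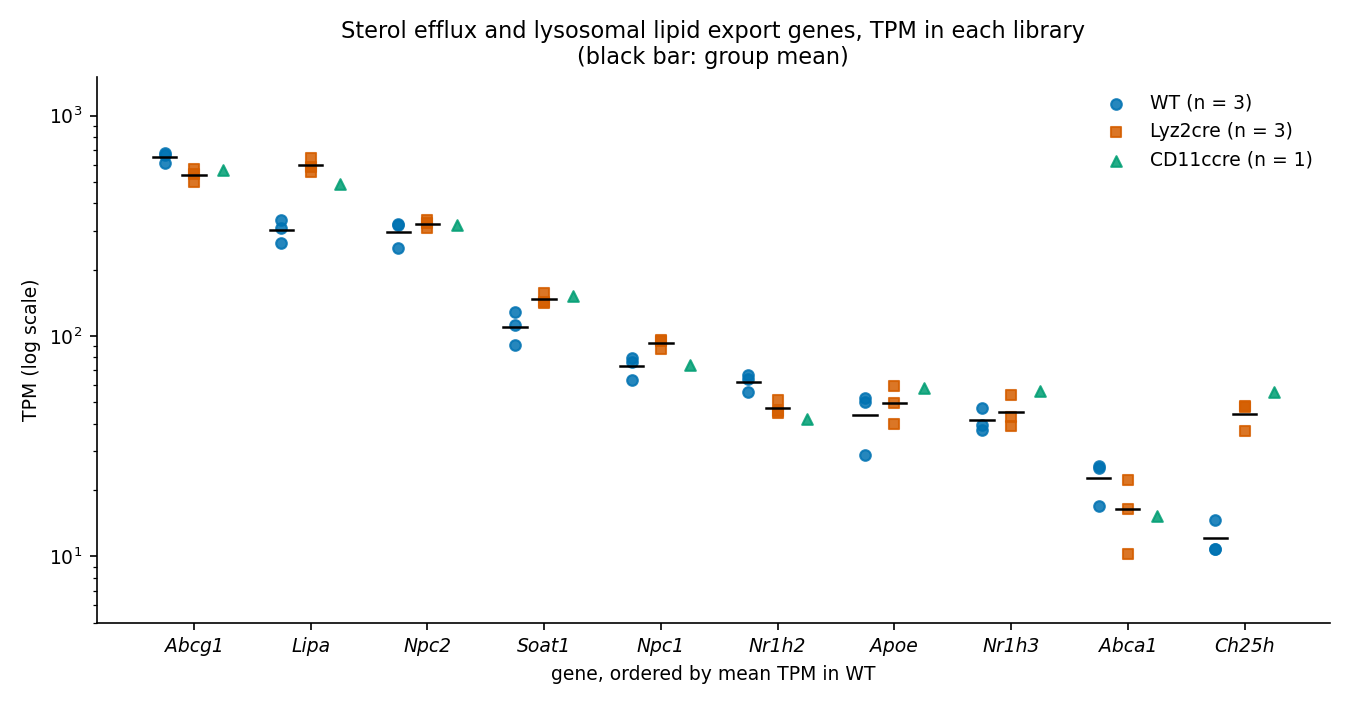
TPM of each of the 10 members (log axis) in the 3 WT, 3 Lyz2cre and 1 CD11ccre libraries, 1 point per library, with a bar at the group mean of WT and Lyz2cre. Ch25h and Lipa lie wholly above their WT points in every library of the floxed lines, while Nr1h3, Abca1, Apoe and Npc2 of Lyz2cre overlap WT.

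The levels of the 10 genes spanned a wide range in WT. Abcg1 was the most abundant at 652 TPM ± 36.4 (SD, n = 3), rank 245 of the 11397 tested genes by WT mean. Lipa and Npc2 followed at 303 ± 36.9 and 298 TPM ± 40.1 (SD, n = 3), and their WT ranges overlapped. Soat1, Npc1 and Nr1h2 came next, Apoe and Nr1h3 lay at about the same level with overlapping ranges, and Abca1 was lower at 22.6 TPM ± 4.88. Ch25h was the least abundant at 12.1 TPM ± 2.20 (SD, n = 3), rank 6401. Among neighbours in this order, Npc1 and Nr1h2 also overlapped, whereas Abcg1 and Lipa, Npc2 and Soat1, Soat1 and Npc1, Nr1h2 and Apoe, Nr1h3 and Abca1, and Abca1 and Ch25h did not.

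The receptors of the pathway were not called in either line. Nr1h2 (LXR beta, the broadly expressed form, ENSMUSG00000060601, chromosome 7, 44549616 to 44553951, minus strand of mm10) stood at 66.29, 64.18 and 55.63 TPM across WT, 44.96, 51.47 and 45.79 TPM across Lyz2cre and 42.24 TPM for CD11ccre. All 4 libraries of the floxed lines lay below all 3 WT libraries. The log2 fold change was −0.38 ± 0.13 (SE) in Lyz2cre, with a 95% confidence interval of −0.68 to −0.08 and an adjusted p of 0.121 in limma, and −0.54 in CD11ccre (adjusted p = 0.142). Under median-of-ratios scaling the Lyz2cre value was −0.20.

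Nr1h3 (LXR alpha, the form known for its role in macrophages, ENSMUSG00000002108, chromosome 2, 91184061 to 91202834, minus strand) stood at 47.21, 39.59 and 37.67 TPM across WT, 39.05, 54.29 and 42.77 TPM across Lyz2cre and 56.37 TPM for CD11ccre. The Lyz2cre and WT ranges overlapped and CD11ccre lay above both. Limma gave a log2 fold change of 0.12 ± 0.16 (SE, adjusted p = 0.708) in Lyz2cre and 0.44 (adjusted p = 0.310) in CD11ccre. Without Lyz2cre replicate 2 the first value was −0.01. Its exons overlap those of the transcript Gm13783 on the same strand in GENCODE M21, so the reads of the pair may have been split.

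Within a library, the ratio of the receptors does not move with that library's scaling. Nr1h3 stood at 0.712, 0.617 and 0.677 of the Nr1h2 level in the WT libraries, at 0.869, 1.05 and 0.934 in Lyz2cre and at 1.33 in CD11ccre. Every ratio of the floxed lines lay above every WT ratio, with means of 0.669 ± 0.0482 and 0.952 ± 0.0945 (SD, n = 3). This shows only an unequal change of the genes, and it carries no test.

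The cholesterol exporters were not called either. Abcg1 (the ABC transporter that passes cholesterol to HDL, ENSMUSG00000024030, chromosome 17, 31057675 to 31117988, plus strand) stood at 665, 611 and 680 TPM across WT, 543, 574 and 498 TPM across Lyz2cre and 567 TPM for CD11ccre. Each library of the floxed lines was below the lowest WT library. The log2 fold change was −0.28 ± 0.10 (SE; 95% interval −0.51 to −0.05; limma adjusted p = 0.141) in Lyz2cre and −0.20 (adjusted p = 0.442) in CD11ccre. Scaling moves these values, to −0.09 in Lyz2cre and to 0.12 in CD11ccre under median-of-ratios scaling, where the direction in CD11ccre turns.

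Abca1 (the ABC transporter that loads lipid-poor apolipoproteins, ENSMUSG00000015243, chromosome 4, 53030787 to 53159895, minus strand) stood at 25.61, 17.01 and 25.31 TPM across WT, 22.32, 16.47 and 10.26 TPM across Lyz2cre and 15.19 TPM for CD11ccre. The Lyz2cre range overlapped that of WT, and CD11ccre lay below the WT range. The log2 fold change of −0.49 ± 0.29 (SE) had a 95% interval of −1.17 to 0.20 and a limma adjusted p of 0.352 in Lyz2cre, and CD11ccre gave −0.52 (adjusted p = 0.496). Abca1 was far below Abcg1 in every library, at 0.0279 to 0.0385 of its level in WT, 0.0206 to 0.0411 in Lyz2cre and 0.0268 in CD11ccre, with overlapping ranges.

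Apoe (the apolipoprotein that macrophages secrete as a lipid acceptor, ENSMUSG00000002985, chromosome 7, 19696109 to 19699188, minus strand) stood at 52.18, 49.99 and 28.87 TPM across WT, 49.61, 59.58 and 39.74 TPM across Lyz2cre and 57.92 TPM for CD11ccre. The groups overlapped and WT replicate 3 was the lowest library of all. The log2 fold change was 0.21 ± 0.26 (SE; 95% interval −0.39 to 0.81; limma adjusted p = 0.667) in Lyz2cre and 0.45 (adjusted p = 0.508) in CD11ccre, and without WT replicate 3 the Lyz2cre value was −0.06.

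Of the lysosomal genes, Lipa was called higher. Lipa (lysosomal acid lipase, which splits cholesteryl esters and triglycerides, ENSMUSG00000024781, chromosome 19, 34492318 to 34527474, minus strand) stood at 308, 264 and 337 TPM across WT, 588, 555 and 646 TPM across Lyz2cre and 489 TPM for CD11ccre. The lowest library of the floxed lines was well above the highest WT library. The mean in Lyz2cre, 596 TPM ± 45.9 (SD, n = 3), was 1.96-fold that of WT, with a log2 fold change of 0.98 ± 0.12 (SE) and a limma adjusted p of 0.00726. This call was made under each of the 17 alternative settings, with log2 fold changes of 0.88 to 1.16 and adjusted p of 0.00360 to 0.0410. In CD11ccre the level was 1.61-fold that of WT, a log2 fold change of 0.69 that was not called (adjusted p = 0.0775; over the 17 alternatives 0.0406 to 0.213, called only under median-of-ratios scaling).

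Npc1 (the membrane protein that exports cholesterol from the lysosome, ENSMUSG00000024413, chromosome 18, 12189692 to 12236400, minus strand) stood at 76.09, 63.09 and 79.86 TPM across WT, 94.98, 86.93 and 96.41 TPM across Lyz2cre and 73.78 TPM for CD11ccre. All Lyz2cre libraries lay above all WT libraries, while CD11ccre lay within the WT range. The log2 fold change was 0.35 ± 0.13 (SE; 95% interval 0.05 to 0.65; limma adjusted p = 0.153) in Lyz2cre and 0.02 (adjusted p = 0.960) in CD11ccre. The Lyz2cre value was 0.53 under median-of-ratios scaling, with an adjusted p of 0.0638. The exons of Npc1 overlap those of Rmc1 and the antisense Gm15956 on the other strand. The strand setting of the quantification is not given in the sources used here, so their reads may not be separated.

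Npc2 (the soluble lysosomal cholesterol carrier, ENSMUSG00000021242, chromosome 12, 84754562 to 84773152, minus strand) stood at 323, 319 and 251 TPM across WT, 325, 309 and 337 TPM across Lyz2cre and 318 TPM for CD11ccre. The groups overlapped, with log2 fold changes of 0.13 ± 0.12 (SE; limma adjusted p = 0.572) in Lyz2cre and 0.10 (adjusted p = 0.769) in CD11ccre. Npc2 was 3.15 to 5.05 times as abundant as its partner Npc1 in WT, 3.42 to 3.55 times in Lyz2cre and 4.31 times in CD11ccre, and these ranges overlapped.

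Ch25h showed the largest change of the 10. Ch25h (cholesterol hydroxylase of the endoplasmic reticulum, best known as an interferon-responsive gene of macrophages, ENSMUSG00000050370, chromosome 19, 34473778 to 34475164, minus strand) stood at 10.85, 10.86 and 14.67 TPM across WT, 37.04, 47.86 and 47.99 TPM across Lyz2cre and 56.03 TPM for CD11ccre. Every library of the floxed lines was above every WT library, and CD11ccre was the highest of all. The mean in Lyz2cre, 44.3 TPM ± 6.28 (SD, n = 3), was 3.65-fold that of WT, with a log2 fold change of 1.79 ± 0.18 (SE) and a limma adjusted p of 0.00349. Under the 17 alternatives it ran from 1.52 to 1.96 with adjusted p of 0.00153 to 0.0297.

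In CD11ccre Ch25h was 4.62-fold the WT mean, a log2 fold change of 2.13 with a limma adjusted p of 0.0106, where the lone library is taken to spread as WT and Lyz2cre do. This call ended without WT replicate 1, without WT replicate 2 and with only WT and CD11ccre in the fit. The log2 fold change stayed between 1.84 and 2.44 under all 17 alternatives. The exons of Ch25h overlap those of Gm26902, a bidirectional-promoter lncRNA on the other strand. Gm26902 stood at 1.01, 1.94 and 1.33 TPM across WT, 2.03, 5 and 4.04 TPM across Lyz2cre and 3.36 TPM for CD11ccre, and was not called in Lyz2cre (limma adjusted p = 0.157).

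Soat1 (the enzyme that esterifies cholesterol for storage in droplets, ENSMUSG00000026600, chromosome 1, 156424525 to 156474331, minus strand) stood at 112, 90.8 and 129 TPM across WT, 141, 143 and 157 TPM across Lyz2cre and 153 TPM for CD11ccre. All libraries of the floxed lines lay above the highest WT library. The log2 fold change was 0.42 ± 0.15 (SE; 95% interval 0.08 to 0.76; limma adjusted p = 0.132) in Lyz2cre and 0.48 (adjusted p = 0.227) in CD11ccre. Lipa, which hydrolyses the esters, was 2.62 to 2.91 times as abundant as Soat1 in WT, 3.88 to 4.18 times in Lyz2cre and 3.20 times in CD11ccre, with every floxed library above WT.

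**Figure D2:**
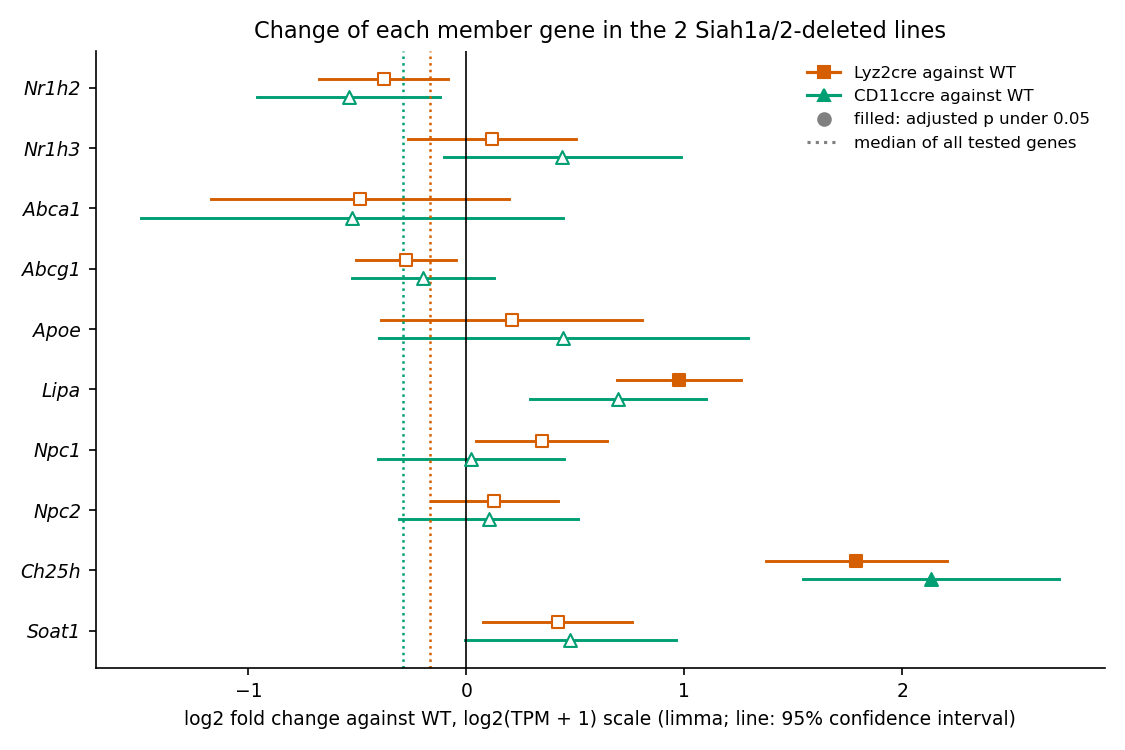
Log2 fold change of each member against WT on the log2(TPM + 1) scale, for Lyz2cre (squares) and CD11ccre (triangles), with 95% confidence intervals from limma and dotted lines at the median of all tested genes (−0.16 and −0.29). Filled symbols are called, which are Ch25h in both lines and Lipa in Lyz2cre.

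Counting ranges in place of adjusted p, 4 of 10 members (Lipa, Npc1, Ch25h and Soat1) lay wholly above WT in Lyz2cre, as did 7.45% of all tested genes, and 2 of 10 (Nr1h2 and Abcg1) lay wholly below, as did 23.3%, which makes 6 of 10 without overlap against 30.8%. The CD11ccre value was outside the WT range in 8 of 10 members (63.5% of all tested genes). It was above that range in 5 (Nr1h3, Apoe, Lipa, Ch25h and Soat1, against 13.0% of all) and below it in 3 (Nr1h2, Abca1 and Abcg1, against 50.5% of all). These counts too are descriptions, as the members were chosen with earlier results of these data known. An exact permutation test of the mean TPM, two-sided, gave p = 0.1 for each of the 6 genes without overlap in Lyz2cre, the smallest that 3 against 3 libraries allow. It gave 0.2 for Abca1, 0.4 for Npc2, 0.6 for Nr1h3 and 0.7 for Apoe.

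The Cre lines did not differ by the test in any member. In CD11ccre against Lyz2cre, limma called 0 of 10 (smallest adjusted p = 0.866, for Npc1), where 13 of all tested genes were called (0.114%; 0.0439% higher and 0.0702% lower), and 0 had an unadjusted p under 0.05, against 6.10% of all tested genes. The intervals are wide with a single CD11ccre library and do not show that the lines are alike. For Lipa the difference was −0.28 (95% interval −0.69 to 0.12), for Npc1 −0.33 (−0.75 to 0.10) and for Ch25h 0.34 (−0.25 to 0.93).

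**Figure D3:**
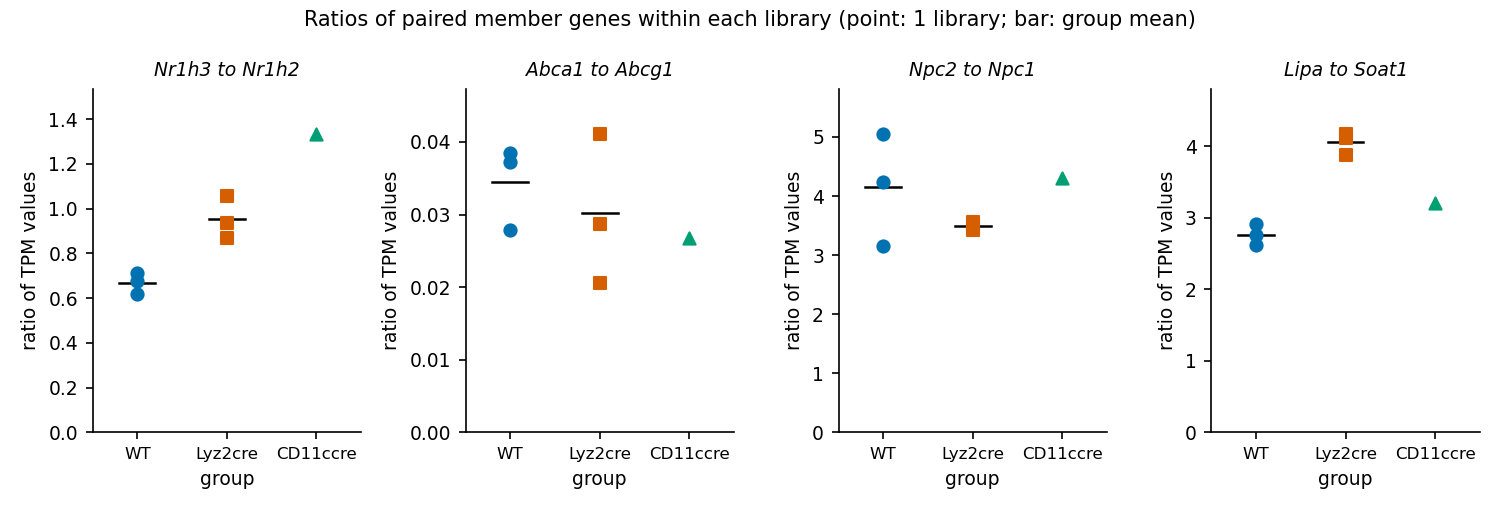
Ratios of the TPM of gene pairs within each library (linear axes from 0), 1 point per library, for Nr1h3 to Nr1h2, Abca1 to Abcg1, Npc2 to Npc1 and Lipa to Soat1. The first and the last lie above WT in every library of the floxed lines, while the other two overlap WT.

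Other genes of these pathways were read from lists of receptors' partners, LXR targets, exporters, lysosomal, oxysterol, ester and uptake genes. The lists were chosen with earlier results of these data known, so their counts are descriptions and not tests. In Lyz2cre, LXR targets other than the members had a median log2 fold change of −0.47, with 0 of 13 tested called higher and 4 lower, against a median of −0.16 and 2.17% higher and 4.60% lower over all tested genes. Under median-of-ratios scaling 2 of 13 were called lower, and 3 with either other scaling. Lpcat3, a phospholipid-remodelling enzyme, stood at 115, 121 and 117 TPM across WT, 66.2, 58.8 and 67.7 TPM across Lyz2cre and 54.0 TPM for CD11ccre, with no overlap. Its log2 fold change was −0.86 ± 0.11 (SE, limma adjusted p = 0.00746) in Lyz2cre, called under all 17 alternatives, and −1.11 (adjusted p = 0.0186) in CD11ccre. The CD11ccre call of Lpcat3 ended without WT replicate 1 (0.0577), without WT replicate 2 (0.0646) and under median-of-ratios scaling (0.0638) or quantile normalization (0.0648). With only WT and CD11ccre in the fit, none of the CD11ccre calls of Lpcat3 and the further listed genes remained (adjusted p 0.103 to 0.201).

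The fatty acid desaturase Scd2 averaged 18.6 TPM ± 1.47 over the WT libraries and 6.72 TPM ± 2.40 over those of Lyz2cre (SD, n = 3; limma adjusted p = 0.0250). The small GTPase Arl4c was 3.73-fold lower (adjusted p = 0.0371), and Mylip, the ubiquitin ligase that marks the LDL receptor for breakdown, was 1.69-fold lower (adjusted p = 0.0393). Leaving out 1 library of WT or Lyz2cre ended the calls of Arl4c (adjusted p 0.0622 to 0.121) and Mylip (0.0731 to 0.130) whichever it was, and that of Scd2 where it was WT replicate 1, 2 or 3 or Lyz2cre replicate 3 (0.0770 to 0.0964). Median-of-ratios scaling ended those of Arl4c (0.0503) and Mylip (0.101), and quantile normalization that of Mylip (0.0984). The most abundant LXR targets of the list, the lipoprotein lipase Lpl (1456 TPM ± 257 over the WT libraries and 1062 TPM ± 62.5 over those of Lyz2cre, adjusted p = 0.0987) and Smpdl3a (adjusted p = 0.526), were not called.

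Among LXR partners and coregulators, 0 of 14 tested were called higher and 1 lower in Lyz2cre, with a median of −0.39 and 1 value above 0. Over all tested genes 2.17% were called higher and 4.60% lower, with a median of −0.16 and 32.9% above 0. Under median-of-ratios scaling the list's median was −0.22, with 5 of 14 above 0 and 0 called. All tested genes there had a median of 0.00 and 50.2% above 0. The gene called in the main fit was Ncor1, the corepressor that holds unliganded LXR targets off. It stood at 87.98, 78.98 and 102 TPM across WT, 44.92, 53.78 and 54.06 TPM across Lyz2cre and 55.87 TPM for CD11ccre, a log2 fold change of −0.80 ± 0.14 (SE, limma adjusted p = 0.0217) in Lyz2cre. The call ended without any 1 library of WT or Lyz2cre (adjusted p 0.0505 to 0.0800) and under median-of-ratios scaling (0.0640) or quantile normalization (0.0714). Rxra, the dimer partner of the receptors, had an adjusted p of 0.784.

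Of 17 other sterol and phospholipid exporters 5 were tested, and 1 was called, higher in both lines (2.17% of all tested genes in Lyz2cre, 0.895% in CD11ccre). This was Abcg2, a multidrug and urate transporter, at 6.14, 13.2 and 11.5 TPM across WT, 34.7, 29.5 and 28.1 TPM across Lyz2cre and 42.0 TPM for CD11ccre. Its log2 fold change was 1.54 ± 0.27 (SE, limma adjusted p = 0.0196) in Lyz2cre and 1.99 (adjusted p = 0.0419) in CD11ccre. The Lyz2cre call ended without WT replicate 3 or any 1 of the Lyz2cre libraries (0.0546 to 0.0879), and the CD11ccre call ended without any 1 of the WT or Lyz2cre libraries (0.0520 to 0.0919). The scavenger receptor Scarb1 (85.7 TPM across WT, 83.4 TPM in Lyz2cre) and Abca3 (14.8 and 14.0 TPM) were not called.

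In the list of lysosomal sterol export and sensing, 17 genes were tested, with a median of 0.05, 0 called higher and 1 lower in Lyz2cre. Over all tested genes the median was −0.16, with 2.17% called higher and 4.60% lower. Gpr155, a lysosomal membrane protein that senses cholesterol, stood at 33.91, 25.29 and 25.93 TPM across WT, 6.94, 4.63 and 3.43 TPM across Lyz2cre and 2.74 TPM for CD11ccre. Its log2 fold change was −2.32 ± 0.25 (SE, limma adjusted p = 0.00480) in Lyz2cre, called under all 17 alternatives, and −2.96 (adjusted p = 0.0113) in CD11ccre, which was no longer called without WT replicate 1 (0.0567) or without WT replicate 2 (0.0593). The membrane protein Lamp1 averaged 830 TPM ± 43.5 over the WT libraries and 1082 TPM ± 57.2 over those of Lyz2cre (SD, n = 3) and missed the threshold (adjusted p = 0.0526), but was called higher under all 3 other scalings. Lamp2 had an adjusted p of 0.457.

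Lysosomal glycerolipid hydrolases gave 0 higher and 1 lower of 7 tested in Lyz2cre, with a median of −0.00. All tested genes gave 2.17% higher and 4.60% lower, with a median of −0.16. Pld4, an endolysosomal phospholipase family member that works as a nuclease, fell from 156 TPM ± 5.02 to 78.5 TPM ± 17.9 (SD, n = 3; limma adjusted p = 0.0198), and CD11ccre stood at 56.68 TPM (adjusted p = 0.0319). The first call ended without WT replicate 1, 2 or 3 or Lyz2cre replicate 2 (adjusted p 0.0668 to 0.0799), and the other without the same libraries (0.0725 to 0.0956) and under median-of-ratios scaling (0.0544) or quantile normalization (0.0557). Pld3 (adjusted p = 0.202) and Pla2g15 (adjusted p = 1), the most abundant of the list, were not called. Under the 3 other scalings Abhd6 was called higher in Lyz2cre as well.

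Oxysterol and bile acid enzymes (4 of 10 tested) and ester storage genes (5 of 10 tested) gave 0 calls in either line, with 2 of each list at an unadjusted p under 0.05 in Lyz2cre and 1 of each in CD11ccre (24.6% and 22.3% of all tested genes). Hsd3b7, which acts on oxysterols, averaged 189 TPM ± 20.0 over the WT libraries and 132 TPM ± 24.6 over those of Lyz2cre (SD, n = 3; adjusted p = 0.106), and Sult2b1, which sulfates them, 9.53 and 2.57 TPM (adjusted p = 0.0927). The droplet coat protein Plin2 was at 2434 TPM ± 314 over the WT libraries and 2848 TPM ± 266 over those of Lyz2cre (adjusted p = 0.301), and the ester hydrolase Nceh1 at 304 and 233 TPM (adjusted p = 0.0788). Median-of-ratios scaling and quantile normalization each added 1 ester storage gene to the calls, Pnpla2 in Lyz2cre and Abhd5 in CD11ccre.

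In CD11ccre the counts higher and lower were 0 and 1 for LXR targets (Lpcat3), 1 and 0 for exporters (Abcg2), 0 and 1 for lysosomal sterol genes (Gpr155) and 0 and 1 for glycerolipid hydrolases (Pld4). For LXR partners they were 0 and 0, with 6 of 14 at an unadjusted p under 0.05 in limma (22.3% of all tested genes). The median log2 fold change of the partners was −0.72. Over all tested genes that median was −0.29, with 0.895% called higher and 1.99% lower.

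Receptors for lipoproteins and modified lipids were the list with most calls upward, and this list too was chosen with earlier results known. In Lyz2cre 3 of 7 tested were called higher and 0 lower, with a median of 0.36 and all 7 above 0, against 2.17% called higher and 32.9% above 0 over all tested genes. In CD11ccre 2 of 7 were higher and 0 lower, against 0.895% higher over all tested genes. Msr1, a class A scavenger receptor, stood at 7.35, 13.95 and 5.67 TPM across WT, 65.77, 58.31 and 73.36 TPM across Lyz2cre and 52.38 TPM for CD11ccre. Its mean was 7.32-fold that of WT in Lyz2cre (log2 fold change 2.82 ± 0.29, SE; limma adjusted p = 0.00395), called under all 17 alternatives.

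Olr1, a receptor for oxidised LDL, averaged 87.3 TPM ± 19.0 over the WT libraries and 194 TPM ± 11.3 over those of Lyz2cre (SD, n = 3; limma adjusted p = 0.00950; 0.0536 without Lyz2cre replicate 3), and stood at 197 TPM in CD11ccre (adjusted p = 0.0436). Cd36, a fatty acid and oxidised lipid receptor, averaged 319 TPM ± 15.9 and 506 TPM ± 47.6 (adjusted p = 0.0154), which was no longer called on leaving out WT replicate 1 or 2 or Lyz2cre replicate 1 or 3 (0.0503 to 0.0667). The CD11ccre call of Msr1 (adjusted p = 0.0301) ended without WT replicate 1 or 3 or any 1 Lyz2cre library (0.0606 to 0.0899), and that of Olr1 without WT replicate 1 or 2 or any 1 Lyz2cre library (0.0806 to 0.109). Lrp1, the most abundant of the list, averaged 435 and 421 TPM (adjusted p = 0.995).

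**Figure D4:**
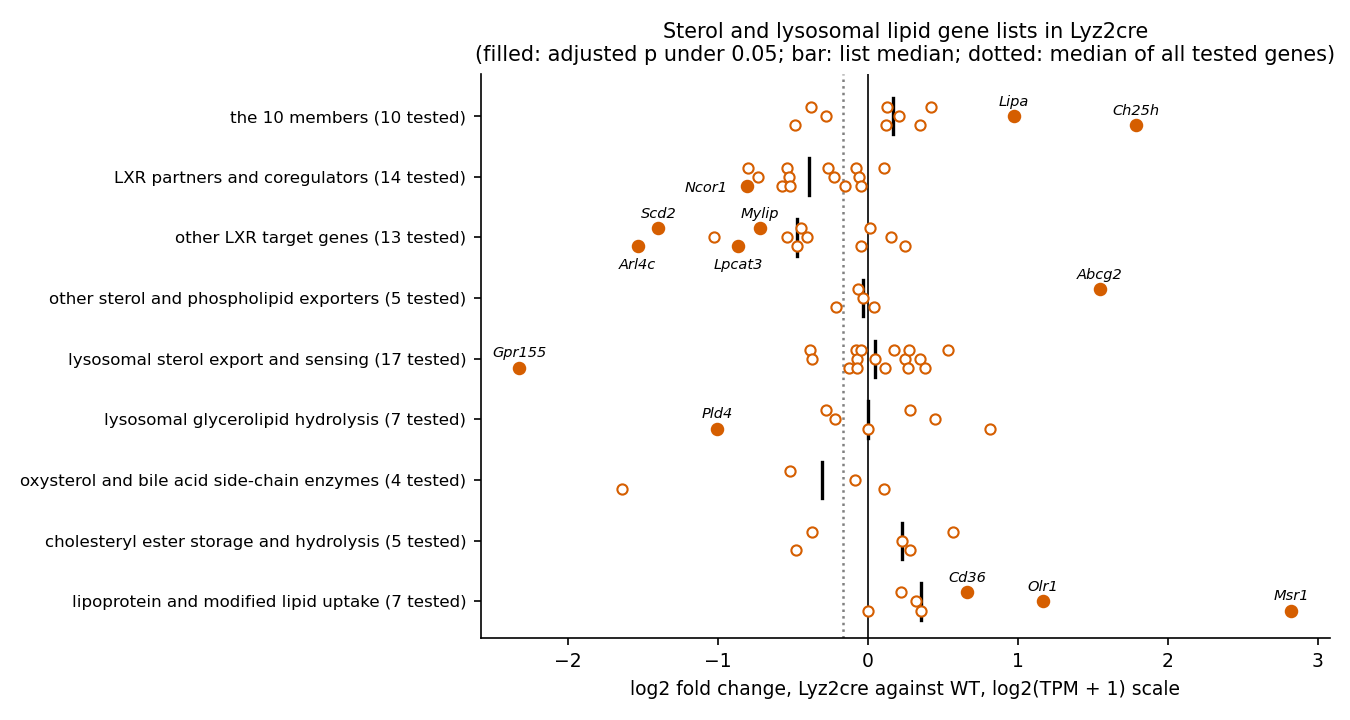
Log2 fold change in Lyz2cre against WT of every tested gene of the members and of 8 related lists, 1 point per gene, filled where called, with a bar at each list's median and a dotted line at the median of all tested genes (−0.16). Called genes are named, and the 4 called LXR targets and Ncor1 lie on the lower side while Msr1, Olr1 and Cd36 lie on the higher side.

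Ch25h and Lipa, the 2 members called in Lyz2cre, lie 17.2 kb apart on chromosome 19, on the same strand, with 0 annotated genes between them. Their neighbourhood was looked at after these values were seen, so it carries no test of its own. Within 500 kb to each side, 11 of 34 annotated genes were tested, and 4 were called higher and 0 lower in Lyz2cre. Over all tested genes 2.17% were called higher and 4.60% lower. The 4 include Ch25h and Lipa, whose calls set the window, so the count is not independent of that choice. Besides the members these were Lipf and Lipn, which encode acid lipases of the same family as Lipa. Lipn had a WT mean of 0.237 TPM and passed the filter only through the floxed lines, so its place in the count is not independent of the filter.

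Lipf (chromosome 19, 33961187 to 33976810, plus strand) stood at 23.62, 21.30 and 20.86 TPM across WT, 47.26, 34.61 and 47.25 TPM across Lyz2cre and 54.43 TPM for CD11ccre, with no overlap. Its log2 fold change was 0.93 ± 0.16 (SE, limma adjusted p = 0.0198) in Lyz2cre and 1.28 (adjusted p = 0.0363) in CD11ccre. Both calls of Lipf ended on leaving out WT replicate 1, 2 or 3 or Lyz2cre replicate 1 or 3 (0.0578 to 0.0869 in Lyz2cre, 0.0629 to 0.0963 in CD11ccre).

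Lipn (chromosome 19, 34067358 to 34084918, plus strand) was listed at 0.71, 0 and 0 TPM in WT and stood at 2.71, 2.98 and 2.37 TPM across Lyz2cre and 6.73 TPM for CD11ccre. Lipn was near the floor in every library. With WT under 1 TPM, it was tested only because of its level in the floxed lines, and it was not tested with the floor of 5 TPM. Its log2 fold change was 1.62 ± 0.34 (SE, limma adjusted p = 0.0373) in Lyz2cre and 2.69 (adjusted p = 0.0363) in CD11ccre. Both calls of Lipn ended on leaving out WT replicate 2 or 3 or any 1 of the Lyz2cre libraries (0.0691 to 0.110 in Lyz2cre, 0.0634 to 0.0783 in CD11ccre) and with a pseudocount of 0.1 (0.0558 and 0.0798).

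**Figure D5:**
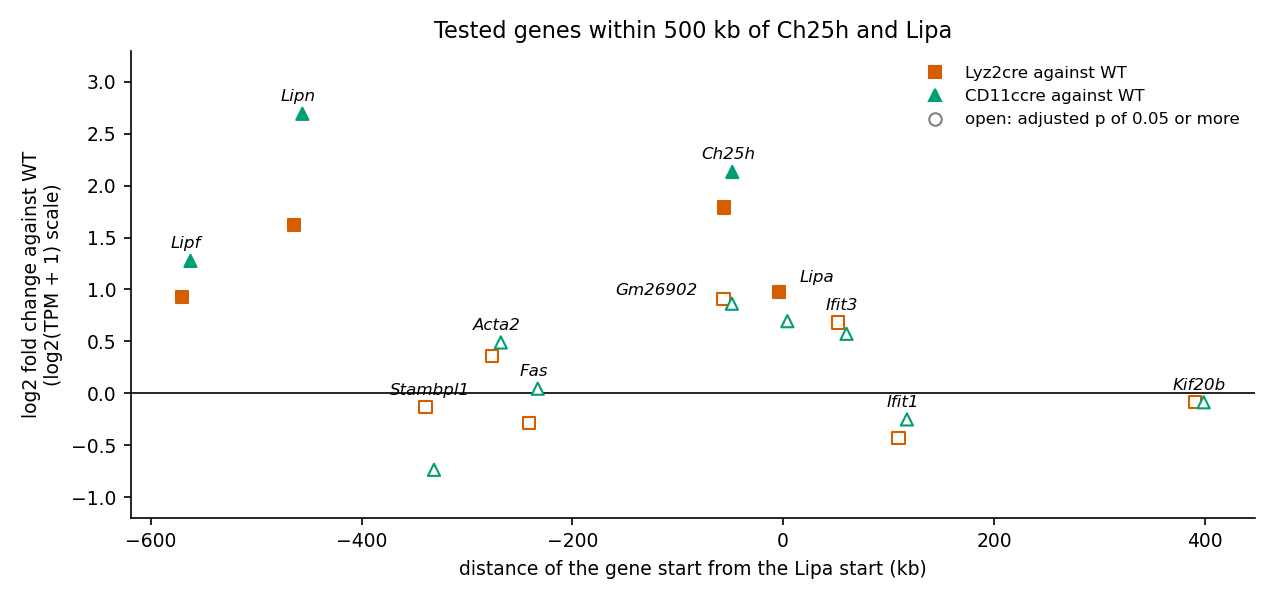
Log2 fold change against WT of the 11 tested genes within 500 kb of the Ch25h and Lipa pair, against the distance of the gene start from the Lipa start in kb, for Lyz2cre and CD11ccre (symbols of a gene set slightly apart sideways to stay legible), filled where called. Lipf, Lipn, Ch25h and Lipa are the 4 genes called in Lyz2cre, and all 4 lie above 0. The calls of Ch25h and Lipa set the window.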

How the data were processed

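Poly(A) RNA libraries from 7 samples were read from one end, with a directional kit, per the labels' protocols. Tools named by the submitters' processing notes are RSEM 1.3.1, STAR 2.7.0d and cutadapt 2.3, with the build mm10. For the annotation and the strand setting, the sources used here give nothing. The authors deposited 1 table of TPM for 47643 genes, of which 47224 matched GENCODE M21 (GRCm38), used for coordinates.

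Tests were run on genes averaging at least 1 TPM, with limma (version 3.58.1, R 4.3.3) fitted to log2(TPM + 1), all 7 libraries in 1 fit with a mean-variance trend (residual degrees of freedom 4, prior 3.35). Fold changes on that scale understate the change of low genes, while N-fold values are ratios of mean TPM. P-values are two-sided, Benjamini-Hochberg adjusted over all tested genes, with a threshold of 0.05. The fit was tested on simulated data.

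Groups came from the titles. The members and lists were chosen with earlier results of these data known. Named were all members, up to 4 called genes and the 2 most abundant of each list, and Siah1a, Siah2, Lyz2 and Itgax as checks; genes named outside this rule are said to be. Lipf, Lipn and the motif TGACGTCA were chosen after seeing the data, as were Gm26902 (for its overlap with Ch25h), Abhd6, Pnpla2 and Abhd5 (for their calls under other scalings). Marker genes were named beside results. For 1 gene chosen this way, no result is reported here.

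Alternatives were pseudocounts of 0.1 and 5, no filter or a floor of 5 TPM, quantile normalization, median-of-ratios scaling, rescaling without the dominant and mitochondrially encoded genes, no trend, robust fitting, the replicate block, leaving out each library, and fitting only the groups compared. Apoc2 has 2 rows, and the more abundant was used.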

Additional observations from a re-analysis of the deposited data

Results flagged for a closer look

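Lyz2, the lysozyme gene from which Cre is expressed in Lyz2cre, differed between the Cre lines. It stood at 46.62, 61.89 and 55.73 TPM in Lyz2cre and at 50676 TPM in CD11ccre, a log2 difference of 9.84 (limma, adjusted p = 1.31e-06). It took 5.07% of the TPM of the CD11ccre library, and its part in the values of the other genes there was not tested.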

How the results depend on the processing

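In Lyz2cre against WT, Ch25h and Lipa stayed the 2 members called under every alternative, and no other member was called. Genes called fell from 771 to 342 with no filter on low values, 436 without the mean-variance trend and 390 with the replicate block, and to between 203 (without Lyz2cre replicate 3) and 441 (without WT replicate 3) with 1 WT or Lyz2cre library left out; without the CD11ccre library they were 778. Against WT, CD11ccre went from 329 to 201 with quantile normalization, 122 without the trend, 21 with the replicate block and 6 with only the groups compared, and to between 23 and 170 with 1 WT or Lyz2cre library left out. Its called members went from 1 to 2 under median-of-ratios scaling, 0 with the block or only the groups compared, and 0 to 1 with 1 library left out (0 without WT replicate 1 or 2). CD11ccre against Lyz2cre went from 13 to 210 with no filter, 3 with the block and 24 with only the groups compared, and to between 1 (without Lyz2cre replicate 1) and 17 with 1 library left out. The cause was not tested, though fits with fewer libraries or the block have fewer residual degrees of freedom.

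Calls split by direction with the scaling: 32.0% of Lyz2cre calls were higher, against 61.9% under median-of-ratios scaling, 59.7% with quantile normalization and 51.0% without the dominant and mitochondrially encoded genes. For CD11ccre these shares were 31.0%, 63.9%, 60.7% and 48.7%.

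Directions that turned were of members not called. With 1 library left out, the mean TPM difference of Apoe (5.96) ran from −1.44 (without WT replicate 3) to 10.9 and its log2 value from −0.059 to 0.357, and those of Nr1h3 (3.88) from −0.58 (without Lyz2cre replicate 2) to 7.04 and from −0.015 to 0.218. In CD11ccre against WT, Abcg1 turned to 0.124 under median-of-ratios scaling and Npc1 to −0.028 with the replicate block, and with 1 library left out Npc1 ran from −0.078 (without WT replicate 2) to 0.089 and Npc2 from −0.014 (without WT replicate 3) to 0.166. In CD11ccre against Lyz2cre, Abca1 turned to 0.093 under median-of-ratios scaling, 0.106 with quantile normalization and 0.035 without the dominant and mitochondrially encoded genes, and Npc2 to 0.112, 0.034 and 0.050. With 1 library left out these ran from −0.318 to 0.207 (without Lyz2cre replicate 1) and from −0.058 to 0.0052 (without Lyz2cre replicate 3).

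Among listed and neighbouring genes, testing with no filter ended the Lyz2cre calls of Ncor1, Scd2, Arl4c, Mylip, Abcg2, Pld4, Lipf and Lipn (adjusted p 0.0554 to 0.101), and fitting without the trend those of Ncor1, Arl4c, Mylip, Pld4 and Cd36 (0.0501 to 0.0579). In CD11ccre, no filter ended those of Abcg2, Pld4, Msr1, Olr1 and Lipf (0.0506 to 0.0839), and no trend the same 5 and Lpcat3 (0.0581 to 0.0930).

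Deviations of same-numbered WT and Lyz2cre libraries correlated at −0.01, 0.04 and 0.07 across genes. WT replicates 2 and 3 correlated best with their own number, and WT replicate 1 with Lyz2cre replicate 2 (0.06). These low values do not settle whether the numbers are pairs, and the main fit did not take them as pairs. With the replicate block the Lyz2cre calls of Mylip, Abcg2 and Lipn ended (0.0538 to 0.0899), as did the CD11ccre calls of Ch25h (0.0563), Lpcat3, Abcg2, Pld4, Msr1, Olr1, Lipf, Lipn, Siah1a and Siah2 (0.0740 to 0.133 for these others). TPM keep no depth, so what depth limits is unknown.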
